A study of Mus musculus with 8 samples.

Results

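The 10 genes described here make up the insulin-like growth factor (IGF) axis as it was measured in the mouse aorta. They are the ligand genes Igf1 and Igf2, the receptor genes Igf1r and Igf2r, and the 6 binding protein genes Igfbp2, Igfbp3, Igfbp4, Igfbp5, Igfbp6 and Igfbp7. They were taken by symbol from a table of 48587 symbols, and all 10 passed the filter on low counts that left 16194 genes to test. The smallest raw count of any of them in any library was 80. RNA came from the entire aortic tree, and the 8 libraries fall into 4 groups of 2. These are VitD-treated mice labelled as having Tet2 knocked out in vascular smooth muscle cells (Tet2KO), VitD-treated wild-type (WT) litter controls, vehicle-treated mice labelled Tet2KO, and vehicle-treated WT litter controls. TET2 acts on DNA methylation by oxidising methylcytosine. The design concerns the effect of vitamin D, of the knockout, and of both together on the aorta. The sources used here give no dose, length of treatment, age, sex, strain, Cre driver or deleted exons, and do not say whether a library is 1 mouse or a pool.

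IGF1 and IGF2 are small secreted proteins related to insulin that promote growth, survival and migration of smooth muscle cells. Both act through IGF1R, a receptor tyrosine kinase, whereas IGF2R carries IGF2 into the cell for breakdown and has no kinase. In the tissue most IGF is held by binding proteins, which can keep it from the receptor or, after cleavage by proteases such as PAPP-A, release it close to the cell.

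The promoters of the 4 genes that passed the test for VitD in WT, a comparison in which 20.1% of all genes tested passed, are shown first, since these genes stood higher together in the VitD libraries. Each is the stretch of 250 bases before the RefSeq start site (build GRCm38.p6), read 5′ to 3′ on the strand of the gene. Entries were found for all 10 IGF genes. A set of 6 motifs was searched on both strands, where N is any base. They were TATAAA (the TATA box), GGGCGG (a GC box) and TGANTCA (a loose form of the AP-1 site). The others were AGGTCA and GGTTCA (cores bound by nuclear receptors) and TTCNNNGAA (the STAT site). Matches are in capitals, and no 2 matches overlapped in these 4 windows. The windows are chr10:87860861-87861110 on the plus strand for Igf1, chr1:72824230-72824479 on the plus strand for Igfbp2, chr11:7213924-7214173 on the minus strand for Igfbp3 and chr11:99040994-99041243 on the plus strand for Igfbp4.
Igf1: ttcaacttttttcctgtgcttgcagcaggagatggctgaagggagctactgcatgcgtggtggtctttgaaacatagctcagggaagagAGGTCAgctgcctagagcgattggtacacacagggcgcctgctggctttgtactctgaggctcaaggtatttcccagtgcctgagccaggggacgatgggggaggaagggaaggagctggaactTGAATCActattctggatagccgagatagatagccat
Igfbp2: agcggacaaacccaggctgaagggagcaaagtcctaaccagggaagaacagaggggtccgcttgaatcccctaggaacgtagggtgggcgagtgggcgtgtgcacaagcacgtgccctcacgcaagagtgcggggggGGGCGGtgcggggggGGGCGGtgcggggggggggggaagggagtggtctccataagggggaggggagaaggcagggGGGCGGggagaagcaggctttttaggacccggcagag
Igfbp3: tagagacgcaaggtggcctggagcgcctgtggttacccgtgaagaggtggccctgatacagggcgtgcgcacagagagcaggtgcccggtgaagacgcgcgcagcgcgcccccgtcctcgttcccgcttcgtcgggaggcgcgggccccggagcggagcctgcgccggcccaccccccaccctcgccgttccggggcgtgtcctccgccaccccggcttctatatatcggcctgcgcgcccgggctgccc
Igfbp4: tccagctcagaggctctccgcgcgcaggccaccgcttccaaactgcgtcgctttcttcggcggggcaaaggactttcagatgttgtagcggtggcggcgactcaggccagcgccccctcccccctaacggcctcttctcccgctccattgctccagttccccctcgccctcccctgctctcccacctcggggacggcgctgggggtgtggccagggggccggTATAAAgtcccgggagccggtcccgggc
The 4 windows had little in common. Igf1 held 1 match to the loose AP-1 form, reading TGAATCA, with its first base at position -37 from the start site. It also held 1 AGGTCA at -161. The Igf1 window lies inside the gene as the GENCODE M21 annotation places it (from 87858265), so it precedes an internal start site. Igfbp2 held 3 GC boxes, at -113, -98 and -37. RefSeq gives Igfbp2 a second start site, whose window is not shown and held 1 match to the loose AP-1 form at -39. Igfbp4 held 1 TATA box at -28, and Igfbp3 held none of the searched letters. Of 32841 promoter windows of the same length, 6.75% held TGANTCA, 14% AGGTCA, 32.7% GGGCGG, 12.4% TATAAA, 8.84% GGTTCA and 7.02% TTCNNNGAA. The Igf1 window was 52.8% G and C, with a ratio of observed to expected CpG of 0.305. The 3 binding protein windows were richer in both, at 67.2% and 0.608 for Igfbp2, 73.2% and 0.958 for Igfbp3 and 69.2% and 0.748 for Igfbp4. The median of all windows was 52.4% and 0.374. Each match is a description of letters, not of binding.

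Some genes of this family are neighbours. Igfbp2 (chromosome 1, 72824503 to 72852474, plus strand, GENCODE M21, mm10) and Igfbp5 (72857932 to 72874884, minus strand) point towards each other across a gap of 5.46 kb. Igfbp3 (chromosome 11, 7206086 to 7213923, minus strand) is separated by 3.54 kb from Igfbp1, a liver-type binding protein gene that had at most 0.186 CPM in any library. Igf1 lies on chromosome 10 (87858265 to 87937042, plus strand) and Igfbp4 on chromosome 11 (99041244 to 99054392, plus strand). Igf2 (chromosome 7, 142650766 to 142666816, minus strand) shares 62.8% of its exon bases with the annotated gene Gm49394 on the same strand, so its counts are uncertain. Igfbp7 (chromosome 5, 77349240 to 77408041, minus strand) shares 7.03% of its exon bases with Polr2b on the opposite strand. Whether the counting used strand is not given, so reads of such overlaps cannot be assigned with certainty.

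Total counts were 15679274 to 22332149 per library, of which the 10 genes held 0.398% to 0.692%. Tet2, counted over the gene, stood at 26.6 and 37.6 CPM (read counts scaled to library size) in VitD libraries labelled Tet2KO, against 18.3 and 20 CPM in WT VitD, and at 42.0 and 35.2 CPM in vehicle libraries labelled Tet2KO, against 35.8 and 32.2 CPM in WT vehicle. It was not lower in the libraries labelled Tet2KO, so every direction between genotypes below rests on the label alone. Spp1, which encodes the mineral-binding protein osteopontin, checked the treatment at 581 and 175 CPM in labelled Tet2KO VitD, 611 and 718 CPM in WT VitD, 5.52 and 4.30 CPM in labelled Tet2KO vehicle and 1.24 and 1.59 CPM in WT vehicle. The library names carry running numbers that fall in 2 separate ranges of unstated meaning. The higher range holds 3 libraries (both WT VitD and Tet2KO VitD 1), and the lower range holds the other 5. In WT the number range and the treatment cannot be told apart, while the Tet2KO VitD group has 1 library in each range.

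Of the 10 transcripts, Igfbp7 was the most abundant per kilobase of transcript in every library. IGFBP7 is a matrix protein that binds IGFs only weakly. Its level averaged 2178 ± 391 CPM per kb in labelled Tet2KO VitD, 2440 ± 322 in WT VitD, 1896 ± 81.1 in labelled Tet2KO vehicle and 1911 ± 84.1 in WT vehicle (SD, n = 2 each). Igfbp4 came next at 319 ± 61.8, 637 ± 112, 169 ± 11.5 and 160 ± 27.0 CPM per kb in the same groups and order. Its libraries overlapped neither Igfbp7 nor the gene below it in any group.

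Under vehicle the order below these was the same in both genotypes: Igfbp5, Igfbp6, Igfbp2, Igf2r, Igf1r, Igf1, Igf2, Igfbp3. Neighbours in this order whose libraries overlapped were Igf1r and Igf1 in labelled Tet2KO vehicle, and Igfbp5 and Igfbp6 in WT vehicle. By group mean, Igfbp2 was in place 3 in both VitD groups. It averaged 110.0 ± 55.8 CPM per kb in labelled Tet2KO VitD, where its libraries lay at 149 and 70.4, the value of Tet2KO VitD 2 falling below Igfbp5 and Igfbp6 of the same library. It averaged 263 ± 20.6 CPM per kb in WT VitD, where it overlapped no neighbour. Igfbp3, last under vehicle at 2.61 ± 0.817 and 3.43 ± 0.240 CPM per kb, stood sixth in labelled Tet2KO VitD at 16.5 ± 13.1 and seventh in WT VitD at 14.4 ± 5.0. Both ligand genes and both receptor genes stayed at or below 27.1 CPM per kb in every library. Overlapping neighbours in labelled Tet2KO VitD were Igfbp2 and Igfbp6, Igfbp6 and Igfbp5, Igfbp3 and Igf2r, Igf2r and Igf1, and Igf1 and Igf1r. In WT VitD they were Igfbp5 and Igfbp6, Igf1 and Igfbp3, and Igfbp3 and Igf2r. With the union of all exons as the length instead of the longest transcript, 10 of 10 genes kept their place in both vehicle groups, 5 in labelled Tet2KO VitD and 8 in WT VitD. By that length Igfbp2 was in place 5 in labelled Tet2KO VitD and in place 3 in WT VitD.

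**Figure D1:**
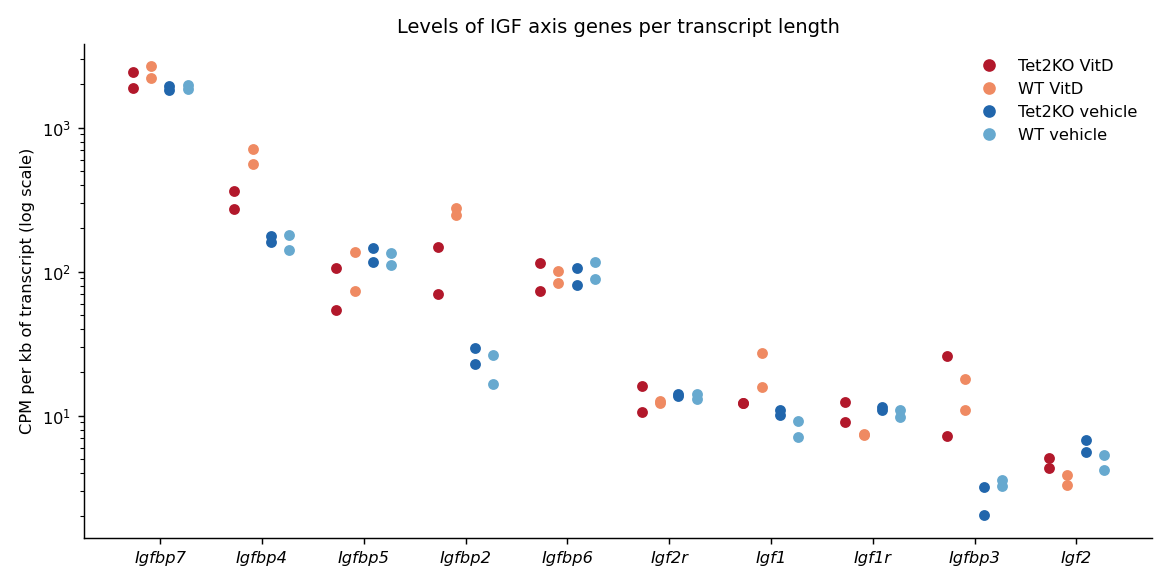
Level of each IGF axis gene in CPM per kb of its longest transcript, on a log scale, with 1 point per library and colours for the 4 groups. Igfbp7 lies above all others in every library, and the points of Igfbp2, Igfbp3 and Igfbp4 lie higher in both VitD groups than in both vehicle groups.

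The ligand gene Igf1, whose product is the main IGF of the postnatal animal, was higher under VitD in WT. It stood at 112 and 191 CPM in the WT VitD libraries, against 65.3 and 50.3 CPM in WT vehicle. The groups did not overlap, and WT VitD 2 was well above WT VitD 1. The difference was 2.63-fold (log2 1.39, SE 0.259, adjusted p = 0.0132, edgeR quasi-likelihood test with Benjamini-Hochberg adjustment over all 16194 genes, threshold 0.05). Without WT VitD 2 the log2 fold change was 0.96 and the call ended (adjusted p = 0.123). It also ended without WT vehicle 1 (0.0657) or WT vehicle 2 (0.0654). Under the Tet2KO label, Igf1 stood at 85.7 and 86.6 CPM under VitD, against 70.9 and 77.6 CPM under vehicle. The groups did not overlap but lay close, and the log2 fold change of 0.21 (95% interval -0.36 to 0.79, adjusted p = 0.709) did not pass the test. Markers of macrophages, which are known to make Igf1, moved in the same comparison. In bulk samples more cells of a type and more RNA per cell cannot be told apart. The 10 macrophage markers, among them Cd68, Csf1r and C1qa, all rose under VitD in WT, where 10.6% of all genes were called higher. In the libraries labelled Tet2KO 1 of 10 was called, where 0.198% of all genes were. Their summed level was 1282 to 2236 CPM in labelled Tet2KO VitD, 2143 to 2637 in WT VitD, 658 to 777 in labelled Tet2KO vehicle and 488 to 501 in WT vehicle, with none of them at 0. Their part in the Igf1 values was not tested.

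Igf2, the ligand that predominates before birth, did not pass the test. It stood at 18.3 and 15.7 CPM in WT VitD, against 19.9 and 25 CPM in WT vehicle (log2 -0.40, SE 0.212, adjusted p = 0.196). Under the Tet2KO label it stood at 24.1 and 20.6 CPM under VitD, against 26.6 and 32.1 CPM under vehicle (log2 -0.39, SE 0.210, adjusted p = 0.438). In both genotypes the VitD libraries lay below the vehicle ones without overlap. The ratio of Igf1 to Igf2 per kb was 2.38 and 2.81 in labelled Tet2KO VitD, 4.10 and 8.17 in WT VitD, 1.79 and 1.62 in labelled Tet2KO vehicle and 2.20 and 1.35 in WT vehicle. As counted, Igf1 exceeded Igf2 per length in every library. Igf2 shares 62.8% of its exon bases with Gm49394 on the same strand, so its counts, the ratio and this order are uncertain.

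The receptor genes did not pass the test in either genotype. Igf1r, the signalling receptor, stood at 85.0 and 83.5 CPM in WT VitD, against 124 and 112 CPM in WT vehicle. These groups did not overlap, and the log2 fold change was -0.49 (SE 0.193, adjusted p = 0.101). It passed the threshold when Tet2KO VitD 1 (adjusted p = 0.0442) or Tet2KO VitD 2 (0.0385) was left out of the common fit, and it was -0.13 (adjusted p = 0.613) once a trend with transcript length was removed. Under the Tet2KO label, Igf1r stood at 104 and 142 CPM under VitD, against 132 and 125 CPM under vehicle, so that the groups overlapped (log2 -0.06, SE 0.192, adjusted p = 0.894). Igf2r, the clearance receptor, stood at 94.7 and 144 CPM in labelled Tet2KO VitD, 108 and 113 CPM in WT VitD, 122 and 125 CPM in labelled Tet2KO vehicle and 117 and 126 CPM in WT vehicle. Its log2 fold change for VitD was -0.13 in WT (95% interval -0.61 to 0.35) and -0.05 in the libraries labelled Tet2KO (-0.53 to 0.43).

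**Figure D2:**
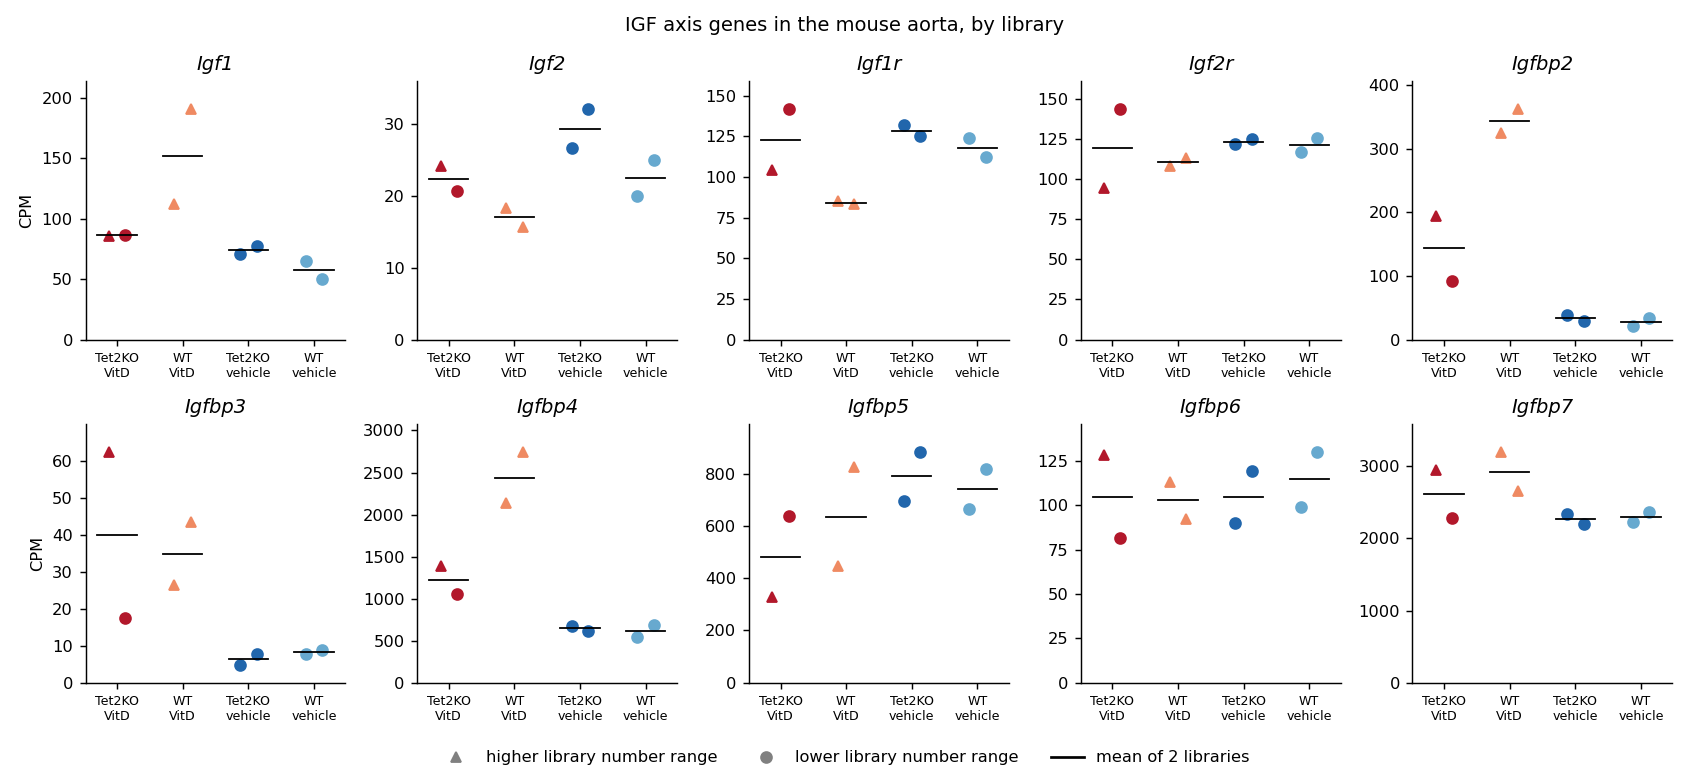
CPM of the 10 IGF axis genes, 1 panel per gene with an axis from 0, with a point per library (triangles for the higher range of library numbers, circles for the lower) and a line at the mean of 2 libraries. Igfbp2 and Igfbp4 show the widest gap between the WT VitD triangles and the vehicle circles, and Tet2KO VitD 2, a circle, lies above all vehicle circles for Igf1, Igf1r, Igf2r, Igfbp2, Igfbp3 and Igfbp4.

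Of the binding proteins, Igfbp2, Igfbp3 and Igfbp4 rose under VitD in WT. Igfbp2 encodes a carrier that also holds an RGD motif able to bind integrins. It stood at 325 and 363 CPM in WT VitD, against 21.7 and 34.4 CPM in WT vehicle. Every WT VitD library was far above every vehicle library, and the difference was 12.2-fold (log2 3.61, SE 0.388, adjusted p = 0.00281). This call held without any single library.

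Igfbp4 encodes a carrier that inhibits IGF action until PAPP-A cleaves it. It stood at 2136 and 2745 CPM in WT VitD, against 539 and 685 CPM in WT vehicle. The groups lay well apart, with a 3.99-fold difference (log2 1.99, SE 0.263, adjusted p = 0.00473). Without WT vehicle 1 the adjusted p was 0.0567.

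Igfbp3 encodes the main carrier of IGF in blood plasma. It stood at 26.3 and 43.5 CPM in WT VitD, against 7.89 and 8.72 CPM in WT vehicle. The groups did not overlap, with a 4.20-fold difference (log2 2.07, SE 0.535, adjusted p = 0.0306). The call ended without WT VitD 1 (adjusted p = 0.0543), WT VitD 2 (0.188), WT vehicle 1 (0.147) or WT vehicle 2 (0.111).

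Igfbp5, Igfbp6 and Igfbp7 did not pass the test in WT. Igfbp5, which encodes a carrier that adheres to matrix, stood at 445 and 826 CPM in WT VitD, against 665 and 816 CPM in WT vehicle (log2 -0.22, SE 0.377, adjusted p = 0.694). Although it neighbours Igfbp2, its WT groups overlapped. Igfbp6, whose product prefers IGF2, stood at 113 and 92.3 CPM in WT VitD, against 99.1 and 130 CPM in WT vehicle, and these groups overlapped too (log2 -0.16, SE 0.264, adjusted p = 0.685). Igfbp7 stood at 3200 and 2655 CPM in WT VitD, against 2222 and 2364 CPM in WT vehicle (log2 0.35, SE 0.240, adjusted p = 0.308), with no overlap.

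In all, 4 of the 10 IGF genes passed the test in WT, all 4 higher under VitD. Over all genes tested, 20.1% passed in this comparison, and 10.6% passed in the higher direction. For 5 of the 10 genes both WT VitD libraries lay above both WT vehicle libraries, against 33.8% of all genes. With the library number range as a term, 0 of the 10 passed, where 0.358% of all genes did. The log2 fold changes were then 2.53 for Igfbp2 (adjusted p = 0.0556), 1.60 for Igfbp4 (0.133), 1.41 for Igf1 (0.330) and 0.25 for Igfbp3 (0.899). In that fit the range is estimated from the 2 Tet2KO VitD libraries alone.

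In the libraries labelled Tet2KO, Igfbp2, Igfbp3 and Igfbp4 again stood above vehicle in both VitD libraries, but none of the 10 genes passed the test, where 0.198% of all genes did. Igfbp2 stood at 195 and 92.1 CPM under VitD, against 38.8 and 29.9 CPM under vehicle (log2 2.06, SE 0.365, adjusted p = 0.0764). Igfbp3 stood at 62.4 and 17.6 CPM under VitD, against 4.91 and 7.71 CPM under vehicle (log2 2.66, SE 0.548, adjusted p = 0.103). Igfbp4 stood at 1389 and 1054 CPM under VitD, against 680 and 617 CPM under vehicle (log2 0.91, SE 0.255, adjusted p = 0.207). None of these 3 genes overlapped between the groups, and Tet2KO VitD 1 was the higher of the VitD libraries for each. Endothelial markers (1 of 8 called in WT, where 20.1% of all genes were) summed to 4639 CPM in Tet2KO VitD 1, and to 1397 CPM in Tet2KO VitD 2. They summed to 2576 to 2974 CPM in WT VitD, 1840 to 1969 in labelled Tet2KO vehicle and 1477 to 1599 in WT vehicle. Tet2KO VitD 1 thus had the highest level of Igfbp3 and the highest sum of these markers. The marker Kdr went the other way, at 21.8 CPM in Tet2KO VitD 1 and 23.5 CPM in Tet2KO VitD 2. In WT VitD the sum and Igfbp3 ran in opposite order. WT VitD 1 had a sum of 2974 CPM with Igfbp3 at 26.3 CPM, and WT VitD 2 had 2576 CPM with Igfbp3 at 43.5 CPM. The part of these markers in the Igfbp3 values was not tested. Igf1, Igfbp2, Igfbp3 and Igfbp4 were the 4 of 10 genes whose VitD libraries both lay above the vehicle ones, against 23.7% of all genes.

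Whether these 3 genes passed depended on the setting. DESeq2 called all 3 higher (adjusted p = 3.79e-07 for Igfbp2, 3.26e-06 for Igfbp3 and 0.00954 for Igfbp4), where 2.49% of all genes were called higher. The edgeR test without the filter on low counts called the same 3, where 2.97% of all genes were called higher. The edgeR test without Tet2KO VitD 2 also called these 3, at log2 2.51 (adjusted p = 0.00292), 3.30 (0.00252) and 1.10 (0.0236), where 6.06% of all genes were called higher. Without Tet2KO VitD 1 all libraries labelled Tet2KO are in the lower number range. There Igfbp2 stood at log2 1.43, Igfbp3 at 1.49 and Igfbp4 at 0.71, each below its value from all 8 libraries. The remaining VitD library, Tet2KO VitD 2, lay above all 4 vehicle libraries of both genotypes for 6 of the 10 genes (Igf1, Igf1r, Igf2r, Igfbp2, Igfbp3 and Igfbp4), against 21.5% of all genes.

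The other binding proteins did not pass the test in the libraries labelled Tet2KO. Igfbp5 stood at 327 and 638 CPM under VitD, against 696 and 883 CPM under vehicle, with no overlap (log2 -0.71, SE 0.379, adjusted p = 0.438). Igfbp6 stood at 128 and 81.5 CPM under VitD, against 89.7 and 119 CPM under vehicle, with a log2 fold change of 0.0024 and a 95% interval of -0.60 to 0.60. Igfbp7 stood at 2945 and 2281 CPM under VitD, against 2344 and 2206 CPM under vehicle (log2 0.20, SE 0.240, adjusted p = 0.712). Both of these genes overlapped between the groups.

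**Figure D3:**
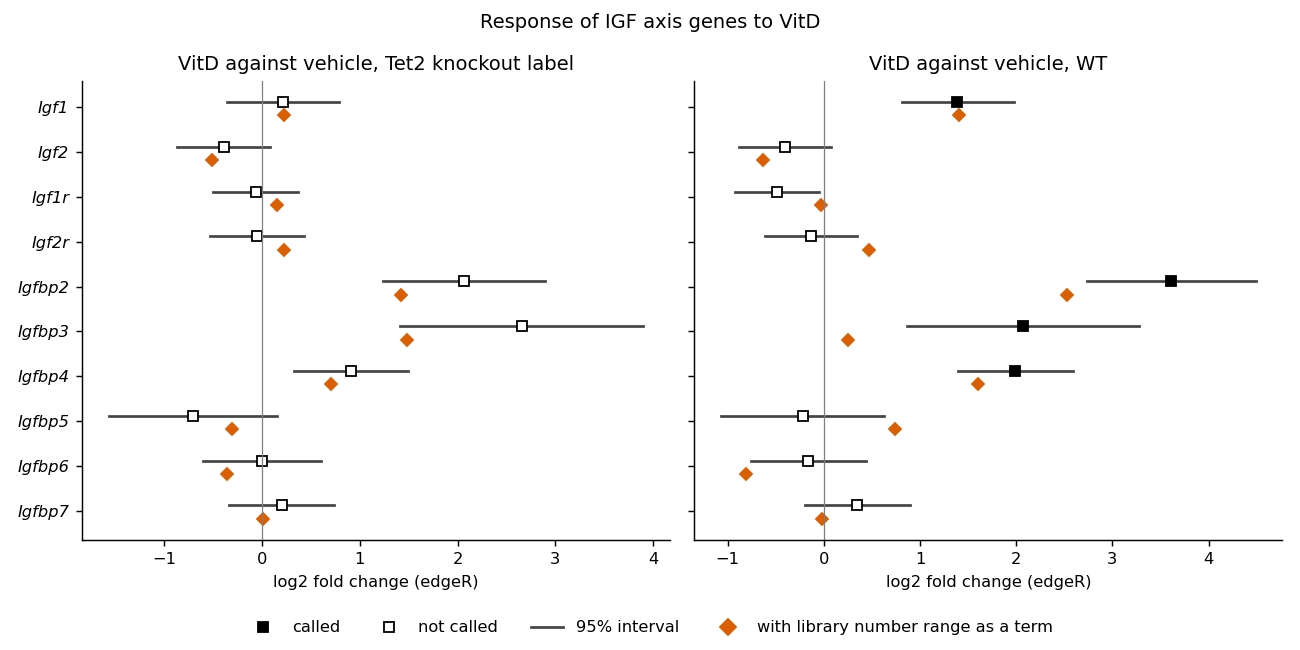
Log2 fold change of VitD over vehicle by edgeR for each IGF axis gene, for libraries labelled Tet2 knockout (left) and WT (right). Squares with bars are estimates with 95% intervals, filled where the adjusted p is under 0.05, and diamonds are estimates with the library number range as a term. In WT the diamond of Igfbp3 lies at 0.25 and its square at 2.07, whereas for Igf1 they lie at 1.41 and 1.39.

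The makeup of the binding protein transcripts differed between VitD and vehicle libraries. Shares are of the summed CPM per kb of the 6 binding proteins in a library. Igfbp7 held 77.6% and 78.1% in labelled Tet2KO VitD, 72.9% and 64.2% in WT VitD, 82.8% and 80.6% in labelled Tet2KO vehicle and 83.7% and 81.0% in WT vehicle. Igfbp4 held 11.5% and 11.3% in labelled Tet2KO VitD, 15.2% and 20.8% in WT VitD, 7.52% and 7.07% in labelled Tet2KO vehicle and 6.36% and 7.36% in WT vehicle. Every VitD library had a smaller share of Igfbp7 and a larger share of Igfbp4 than every vehicle library. Igfbp2 held 4.72% and 2.89% in labelled Tet2KO VitD, 6.79% and 8.06% in WT VitD, 1.26% and 1.0% in labelled Tet2KO vehicle and 0.750% and 1.08% in WT vehicle. Shares sum to 100 in each library, so 1 share falls when another rises. These are values without a test.

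**Figure D4:**
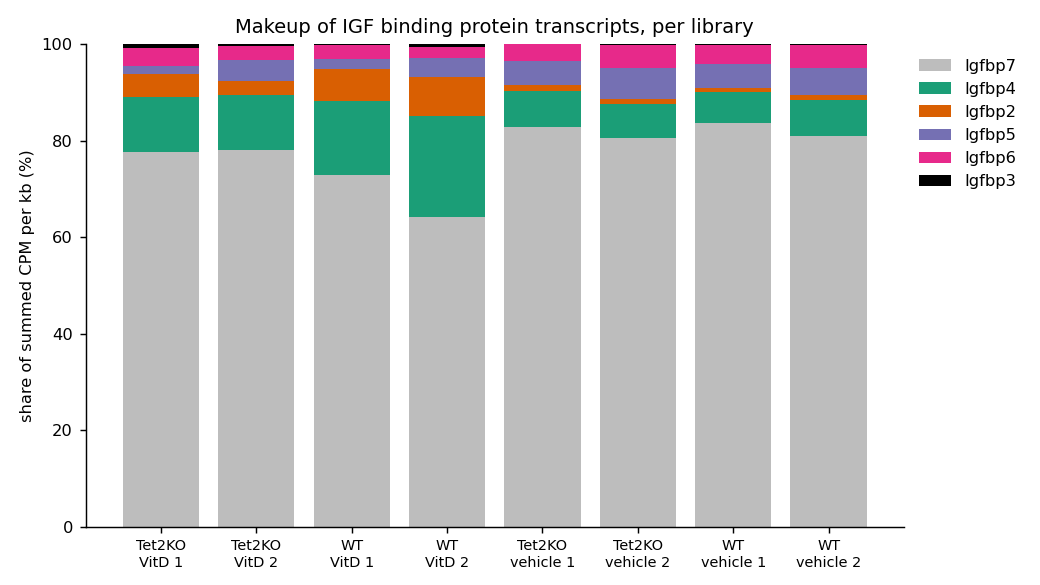
Share of each binding protein gene in the summed CPM per kb of the 6, in percent, with 1 stacked bar per library from 0 to 100. Igfbp7 holds 64.2% to 78.1% in the VitD libraries and 80.6% to 83.7% in the vehicle libraries.

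Summed over the 6, the binding proteins stood at 3161 and 2433 CPM per kb in labelled Tet2KO VitD, 3660 and 3445 in WT VitD, 2359 and 2280 in labelled Tet2KO vehicle and 2212 and 2432 in WT vehicle. The WT VitD libraries lay above all others, and Tet2KO VitD 2 lay next to the highest vehicle library. The ligand genes summed to 17.3 and 16.6 CPM per kb in labelled Tet2KO VitD, 19.8 and 30.5 in WT VitD, 15.7 and 17.8 in labelled Tet2KO vehicle and 13.5 and 12.4 in WT vehicle. In transcripts per length, the binding proteins exceeded the ligands in every library.

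Between genotypes under vehicle, none of the 10 genes passed the test, and 0% of all genes did by edgeR, with 481 genes at an unadjusted p under 0.05 and 18 called by DESeq2. The log2 fold changes of labelled Tet2KO over WT ran between -0.39 for Igfbp3 (95% interval -1.62 to 0.83) and 0.39 for Igf2 (-0.09 to 0.86). For Igfbp2 the value was 0.29 (-0.51 to 1.10), for Igfbp4 0.08 (-0.49 to 0.66) and for Igf1 0.36 (-0.22 to 0.94).

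Between genotypes under VitD, none of the 10 genes passed the test over all genes. Igf1, Igfbp2 and Igfbp4 were lower in both libraries labelled Tet2KO than in both WT libraries, and Igf2 and Igf1r were higher in both. The share of all genes that separate in this way was not counted, so no weight is put on these separations. By edgeR 0% of all genes passed, with 1719 at an unadjusted p under 0.05 and 96 called by DESeq2. Igfbp2 averaged 144 ± 72.9 CPM in labelled Tet2KO VitD and 344 ± 26.9 CPM in WT VitD (SD, n = 2 each). Its log2 fold change by edgeR was -1.26 (SE 0.353, adjusted p = 0.457). Igfbp4 averaged 1222 ± 237 CPM in labelled Tet2KO VitD and 2441 ± 431 CPM in WT VitD. Its log2 fold change by edgeR was -1.0 (SE 0.256, adjusted p = 0.457). Igf1 averaged 86.1 ± 0.612 CPM in labelled Tet2KO VitD and 152 ± 55.9 CPM in WT VitD. Its log2 fold change by edgeR was -0.82 (SE 0.255, adjusted p = 0.457). Igf1r lay the other way, at 123 ± 27.2 CPM in labelled Tet2KO VitD and 84.3 ± 1.02 CPM in WT VitD (log2 0.55, SE 0.193, adjusted p = 0.462 by edgeR). Igfbp3 overlapped between the genotypes (log2 0.19, 95% interval -0.95 to 1.33), and was -1.01 without Tet2KO VitD 1 and 0.83 without Tet2KO VitD 2.

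Other settings called some of these differences. DESeq2 called Igfbp2 (adjusted p = 0.0295) and Igfbp4 (0.0114) lower, 2 of 10, where 0.335% of all genes were called lower. The edgeR test without Tet2KO VitD 1 called the same 2 at log2 -1.92 (adjusted p = 0.0278) and -1.23 (0.0409), where 1.8% of all genes were called lower. The edgeR test without the filter called 3 (Igf1 at 0.0233, Igfbp2 at 3.04e-05 and Igfbp4 at 0.0126), where 0.857% of all genes were called lower. With Tet2KO VitD 2 left out, so that all the VitD libraries are in the higher number range, Igfbp2 stood at -0.82 (adjusted p = 0.593), Igfbp4 at -0.82 (0.512) and Igf1 at -0.83 (0.629), and none was called.

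The difference between the responses to VitD was tested as an interaction. None of the 10 genes passed, and 0% of all genes did by edgeR, with 1006 at an unadjusted p under 0.05 and 18 called by DESeq2. The response in libraries labelled Tet2KO minus that in WT was -1.55 on the log2 scale for Igfbp2 (95% interval -2.69 to -0.42, adjusted p = 0.794). Without Tet2KO VitD 1 it was -2.2 (adjusted p = 0.0627), and without Tet2KO VitD 2 it was -1.11 (0.796). It was -1.18 for Igf1 (-2.0 to -0.36) and -1.08 for Igfbp4 (-1.90 to -0.27), also with an adjusted p of 0.794. For Igfbp3 it was 0.58 (-1.09 to 2.26, adjusted p = 0.914), and was -0.61 without Tet2KO VitD 1 and 1.22 without Tet2KO VitD 2. The edgeR test without the filter called 2 of 10, Igfbp2 (adjusted p = 0.000752) and Igf1 (0.0234), where 0.579% of all genes were called lower. With the filter on low counts, edgeR called Igf1, Igfbp2, Igfbp3 and Igfbp4 in WT and not in the libraries labelled Tet2KO. By that filtered test their responses are not shown to differ between genotypes.

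Among other genes of the pathway, 17 of 19 signalling partners of the receptors were tested, and 2 were called higher and 2 lower under VitD in WT, where 20.1% of all genes were called, a share near that of the list. Irs1, the adaptor through which IGF1R and the insulin receptor reach PI3-kinase, stood at 8.80 and 5.94 CPM in WT VitD, against 36.3 and 24.5 CPM in WT vehicle (log2 -2.04, SE 0.320, adjusted p = 0.00872). Insr, the insulin receptor, stood at 69.4 and 70.4 CPM in WT VitD, against 141 and 121 CPM in WT vehicle (log2 -0.91, SE 0.195, adjusted p = 0.0192). The adaptor Shc1 (log2 0.78, adjusted p = 0.0417) and the kinase Akt1 (0.66, adjusted p = 0.0463) were higher. The median log2 fold change of the 17 was -0.37, beside -0.028 for all genes. These values are without removal of the trend with transcript length. The Spearman correlation of length with the deviation from each gene's mean was -0.301 and -0.206 in WT VitD. It was 0.199 and -0.036 in WT vehicle. None of the 17 was called in the libraries labelled Tet2KO, where 0.198% of all genes were. Their median in those libraries was -0.02, beside -0.005 for all genes. There Irs1 had the smallest p, at 11.3 and 18.6 CPM under VitD, against 29.1 and 29.1 CPM under vehicle (log2 -0.96, SE 0.306, adjusted p = 0.261).

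Of 11 proteases that cleave binding proteins and their inhibitors, all were tested and 3 rose under VitD in WT, where 10.6% of all genes were called higher. Pappa2, a metalloprotease that cleaves IGFBP3 and IGFBP5, stood at 13.8 and 30.6 CPM in WT VitD, against 4.16 and 2.56 CPM in WT vehicle (log2 2.72, SE 0.471, adjusted p = 0.0112). Mmp3, the matrix metalloprotease stromelysin, stood at 368 and 499 CPM in WT VitD, against 87.2 and 88.1 CPM in WT vehicle (log2 2.31, SE 0.236, adjusted p = 0.00273). Adam12, a membrane metalloprotease, stood at 31.3 and 70.0 CPM in WT VitD, against 13.4 and 7.46 CPM in WT vehicle (log2 2.28, SE 0.456, adjusted p = 0.0159). Pappa, the gene of PAPP-A, was not called in WT. It stood at 4.43 and 18.3 CPM in WT VitD, against 4.10 and 1.94 CPM in WT vehicle (log2 1.92, SE 0.615, adjusted p = 0.0565). Under the Tet2KO label its log2 fold change was 1.27 (SE 0.602, adjusted p = 0.4), also not called. The median of the 11 was 0.47 in WT, beside -0.028 for all genes. In the libraries labelled Tet2KO it was 0.61, beside -0.005, and Mmp3 alone was called, where 0.198% of all genes were. It stood at 381 and 283 CPM under VitD, against 78.5 and 85.5 CPM under vehicle (log2 2.02, SE 0.234, adjusted p = 0.0171).

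Of 10 other carriers and growth hormone genes, 8 were tested and 1 was called in WT, where 20.1% of all genes were. H19, the long noncoding RNA 72.6 kb from Igf2, stood at 14.3 and 40.8 CPM in WT VitD, against 4.29 and 5.75 CPM in WT vehicle (log2 2.45, SE 0.488, adjusted p = 0.0158). Under the Tet2KO label it stood at 8.51 and 5.10 CPM under VitD, against 8.53 and 6.59 CPM under vehicle, with overlap (log2 -0.16, adjusted p = 0.894). Of the CCN family, matrix proteins that share the amino-terminal IGFBP domain, 5 genes were tested and 0 were called in either genotype. Of all genes, 20.1% were called in WT and 0.198% in the libraries labelled Tet2KO. At an unadjusted p under 0.05 in WT were Ctgf (log2 0.70, adjusted p = 0.112) and Wisp1 (0.91, adjusted p = 0.122). None of the genes on these 4 lists was called in a comparison between genotypes, where 0% of all genes were by edgeR.

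For each of the 4 called IGF genes, the 3 genes with the most similar levels were sought among 9667 genes averaging 10 CPM or more, by Pearson r of log2(CPM + 1) over the 8 libraries. These values describe the 8 libraries, which share their treatment, number ranges and scaling with every gene compared. Closest to Igf1 were Car13 (0.989), Mmp2 (0.989) and Sirpa (0.979), which encode a carbonic anhydrase, a gelatinase and a surface receptor of myeloid cells. Closest to Igfbp2 were Arpc4 (0.997), Arhgdia (0.995) and Slc35e4 (0.993). Closest to Igfbp3 were Flt1 (0.985), a VEGF receptor of endothelial cells, Trmt6 (0.984) and Mpp6 (0.982). Closest to Igfbp4 were Ckap4 (0.993), Impdh2 (0.993) and Cpxm1 (0.992). Among the IGF genes themselves, Igfbp2 and Igfbp4 stood at r = 0.987.

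The libraries differed in the markers of other cell types too. In WT, 10.6% of all genes were called higher under VitD and 9.47% lower, beside which the marker counts stand. Of 9 smooth muscle markers, 4 were called lower in WT, and the sum was 21982 to 31069 CPM in labelled Tet2KO VitD, 16226 to 24093 in WT VitD, 31984 to 34263 in labelled Tet2KO vehicle and 33566 to 33641 in WT vehicle. Skeletal muscle markers (7 of 7 tested called higher in WT) summed to 112 and 477 CPM in WT VitD and to at most 35.4 CPM in any other library. Fibroblast markers (1 of 9 called in WT) summed to 8880 to 9669 CPM in labelled Tet2KO VitD, 11054 to 11961 in WT VitD, 8912 to 9819 in labelled Tet2KO vehicle and 7126 to 8475 in WT vehicle. Mesothelial markers were called higher for 4 of 6 and thymocyte markers lower for 2 of 7 in WT. The thymocyte markers summed to 107 CPM in WT vehicle 1 but 6.38 CPM in WT vehicle 2, against 7.88 and 7.42 CPM in WT VitD. Of the adipocyte and hepatocyte markers, 0 of 8 and 0 of 8 were called. The adipocyte markers summed to 910 CPM in Tet2KO VitD 1 and to 1700 to 2866 CPM in the other libraries. The hepatocyte markers summed to 394 CPM in Tet2KO VitD 1 and to 162 to 288 CPM in the other libraries. Most of each sum was Cyp2e1, at 152 to 288 CPM. Alb stood at 69.0 CPM in Tet2KO VitD 1 and 50.4 CPM in WT vehicle 2, against 0.792 to 12.4 CPM in the other libraries. Tat was high in Tet2KO VitD 1 only, at 5.59 CPM, against 0.911 CPM in WT vehicle 2. The part of these cell types in the values of the IGF genes was not tested.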

How the data were processed

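RNA was extracted with TRIZOL and made into poly-A enriched stranded libraries, per the labels' protocols. The authors deposited raw counts for each gene symbol, 1 column per library. Per the submitters' processing notes, Trimmomatic 0.39, STAR 2.7.8a and featureCounts 2.0.2 were used with build mm10. No annotation release, strand setting or handling of reads with several matches was named. Groups were taken from the sample titles.

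The tests used edgeR 4.0.16 under R 4.3.3 (TMM, filterByExpr, quasi-likelihood test, 1 mean per group over all 8 libraries, 4 residual degrees of freedom). Benjamini-Hochberg adjustment ran over all 16194 genes within each of 5 comparisons, with a threshold of 0.05. CPM is the count scaled by the TMM library size. Intervals are at 95%. Standard errors come from the fold change and its F statistic. Levels between genes were divided by the longest transcript of GENCODE M21, in which 46384 of 48587 symbols (95.5%) matched 1 gene. DESeq2 1.42.0 was run as an alternative on every gene with a count. Removal of a trend with transcript length was an alternative chosen after seeing the data. For each library, the deviation of log2 CPM from the gene's mean over the 8 libraries was fitted against log2 length by lowess. That trend entered the fit as an offset.

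All 10 IGF genes are named. From 4 pathway lists, up to 4 called members, or up to 2 with the smallest p, are named, with 3 similar genes per called IGF gene. Pappa is named as well, since PAPP-A is mentioned in the text. The IGF genes, the lists and the marker lists were chosen with earlier results of these data known. Nothing in the labels says whether the libraries of a group are separate animals, so the p-values measure only how far these libraries differ, which can be technical variation. Same-group libraries differed beyond counting noise.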

Additional observations from a re-analysis of the deposited data

How the results depend on the processing

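In WT, 3251 genes passed for VitD, 58 with the library number range as a term, 2474 with the replicate number as a block and 140 to 4946 without 1 library. In the libraries labelled Tet2KO, 32 genes passed, against 461 by DESeq2, 1225 without the filter, 24 with the replicate block, 20 with the range term, 2 in a fit of only the groups compared, 19 with the length trend removed and 0 to 1898 without 1 library. Between genotypes under vehicle 0 passed, against 18 by DESeq2 and 164 without the filter. Under VitD 0 passed, against 96 by DESeq2, 610 without the filter, 16 with the range term and 0 to 674 without 1 library. For the interaction 0 passed, against 18 by DESeq2, 403 without the filter, 7 with the range term and 0 to 37 without 1 library.

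Some log2 fold changes of genes that were not called changed sign. In WT, Igf2r was 0.47 with the range term and 0.15 with the length trend removed, Igfbp5 was 0.74 with the range term and -0.73 to 0.20 without 1 library, Igfbp7 was -0.02 with the range term, and Igfbp6 was -0.33 to 0.05 without 1 library. In the libraries labelled Tet2KO, Igf1r was 0.15 with the range term, 0.09 with the length trend removed and -0.31 to 0.16 without 1 library. Igf2r was 0.22, 0.06 and -0.39 to 0.23 in the same settings, and Igfbp6 was -0.36, -0.18 and -0.35 to 0.29, and -0.0037 with the replicate block. Between genotypes under vehicle, values without 1 library were -0.07 to 0.27 for Igfbp4, -0.02 to 0.08 for Igf2r, -0.09 to 0.26 for Igfbp5, -0.35 to 0.08 for Igfbp6 and -0.05 to 0.04 for Igfbp7. With the length trend removed Igf2r was -0.06 and Igfbp7 0.08, and Igfbp7 was 0.00068 without the filter. Between genotypes under VitD, values without 1 library were -1.01 to 0.83 for Igfbp3, -0.23 to 0.36 for Igf2r, -0.96 to 0.11 for Igfbp5, -0.35 to 0.32 for Igfbp6 and -0.38 to 0.0068 for Igfbp7. With the range term Igf2r was -0.23 and Igfbp7 0.0085, and with the length trend removed they were -0.14 and 0.08. In the interaction, values without 1 library were -0.61 to 1.22 for Igfbp3, -0.17 to 0.16 for Igf2, -0.26 to 0.34 for Igf2r, -1.06 to 0.02 for Igfbp5, -0.21 to 0.45 for Igfbp6 and -0.36 to 0.01 for Igfbp7. With the range term Igf2r was -0.25 and Igfbp7 0.02, and with the length trend removed Igf2 was -0.07, Igf2r -0.08 and Igfbp7 0.0027. Igf2 was -0.01 by DESeq2 and with its size factors, and -0.02 without the filter. The cause was not tested. Over the 10 genes and 5 comparisons, 58 values under an alternative changed sign, 650 kept direction and side of the threshold, 20 passed it only there and 12 no longer passed it. Replicate numbers did not pair the libraries (correlation of same-numbered deviations -0.115 to 0.138), and the block changed the call of 0 of the IGF genes. Counts of 80 and above leave counting error small, so that 2 libraries a group set the precision.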
